A study of Homo sapiens with 6 samples.

Results

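The genes described here serve protein folding in the endoplasmic reticulum and the unfolded protein response. They were taken from a list of 37 gene symbols. A listed gene was counted as measured where the platform annotation gave at least 1 probe set that symbol alone, and of several such probe sets the one brightest on average across the 6 arrays stood for it. That left 36 genes of 19775 measured on the array. SYVN1, the ubiquitin ligase HRD1, had no probe set of its own. VIMP was found under its current symbol, SELENOS.

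The cells were THP1, a monocytic acute myeloid leukaemia line, and every culture was of this 1 line. In the Dll4-Fc group (3 arrays) THP1 cells spent 48 hours in wells that carried immobilized Dll4-Fc. This protein joins Delta-like 4, a ligand of Notch receptors, to the Fc region of an antibody. In the untreated group (3 arrays) the plates had no ligand, and the protocol calls that control vehicle. The coating is given as 30 nM in the protocol and as 60 nM in the sample labels, and no plate coated with Fc alone is named. Both groups were kept in RPMI with FCS, and each RNA was amplified before hybridization to an Affymetrix U133 Plus 2.0 array of its own. The labels do not say whether replicates were separate cultures, so the p-values below reflect only how far these samples scatter, and that scatter may be technical.

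Proteins bound for the cell surface, the lysosome or secretion enter the endoplasmic reticulum unfolded. Chaperones and disulphide-forming enzymes fold them there, and those that fail are passed back to the cytosol and degraded. When unfolded protein builds up, 3 membrane sensors, encoded by ATF6, ERN1 and EIF2AK3, change transcription and translation, and this is the unfolded protein response. It is best known from plasma cells and other cells that secrete much protein, and in macrophages it also takes part in cytokine production.

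Many promoters of this pathway carry the endoplasmic reticulum stress element (ERSE), which ATF6 binds together with the factor NF-Y, or the shorter ERSE-II. ERSE reads CCAAT, any 9 bases and CCACG, and ERSE-II reads ATTGG, any base and CCACG. Exact matches to both were searched on both strands in the 250 bases before each annotated start, in RefSeq sequence of GRCh38.p14. Near matches were not searched. Promoter sequences matched 33 of the 37 listed genes, with 40 start sites between them. PDIA3, DERL1, DERL3 and SEC24D had no entry. ERSE stood in the promoters of 8 listed genes, at 9 of those 40 start sites, against 26 (0.074%) of all 35116 promoters. ERSE-II stood in those of 3, at 3 of the 40 start sites, against 18 (0.0513%) of all promoters. The counts over all promoters include the listed genes. The promoters of HSPA5 and HERPUD1 are shown whole, the first because its product is the central chaperone. The second is shown because the signal of the probe set that stood for it changed most among the listed genes. Both read 5′ to 3′ on the gene's strand and end at the base before the start, and capitals mark exact matches to an element. Near matches, such as CCAAT, 9 bases and CCAAC in HSPA5, are not marked. The HSPA5 promoter lies at chr9:125241344-125241593 on the minus strand and that of HERPUD1 at chr16:56931892-56932141 on the plus strand.
HSPA5: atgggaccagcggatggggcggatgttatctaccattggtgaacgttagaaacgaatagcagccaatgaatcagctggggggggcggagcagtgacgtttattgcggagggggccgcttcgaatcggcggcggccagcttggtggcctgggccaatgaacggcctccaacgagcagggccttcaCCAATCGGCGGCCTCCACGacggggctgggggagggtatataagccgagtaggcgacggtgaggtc
HERPUD1: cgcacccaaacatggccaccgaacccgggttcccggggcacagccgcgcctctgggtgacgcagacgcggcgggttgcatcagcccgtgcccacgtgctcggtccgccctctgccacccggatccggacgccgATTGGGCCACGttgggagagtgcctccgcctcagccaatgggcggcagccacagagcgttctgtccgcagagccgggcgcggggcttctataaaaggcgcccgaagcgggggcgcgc

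The other elements are shown with up to 12 bases on each side, because genes that carry one differed in whether they passed the test described next. An element on the opposite strand reads CGTGG first. The CRELD2 window is chr22:49918542-49918584 (plus strand), that of ERO1B chr1:236282171-236282208 (minus), that of XBP1 chr22:28800591-28800633 (minus) and that of CALR chr19:12938372-12938414 (plus). HSP90B1 held 2 elements, in chr12:103930204-103930246 and chr12:103930309-103930351 (plus). The windows of CANX and PDIA6 are chr5:179698766-179698808 (plus) and chr2:10812841-10812883 (minus). The ERSE-II of SDF2L1 lies in chr22:21642102-21642136 (plus), and HYOU1 held 2 of them, in chr11:119057368-119057402 and chr11:119057262-119057296 (minus). The first of these overlaps TGACGTGG, a match to the unfolded protein response element that 0.612% of all promoters hold on either strand.
CRELD2: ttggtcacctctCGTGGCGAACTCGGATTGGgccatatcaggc
ERO1B: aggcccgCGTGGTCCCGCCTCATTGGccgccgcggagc
XBP1: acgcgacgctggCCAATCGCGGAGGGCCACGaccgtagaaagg
CALR: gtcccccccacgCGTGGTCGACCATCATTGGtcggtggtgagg
HSP90B1, far: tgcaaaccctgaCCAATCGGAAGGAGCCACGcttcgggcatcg
HSP90B1, near: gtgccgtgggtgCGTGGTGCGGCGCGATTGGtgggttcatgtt
CANX: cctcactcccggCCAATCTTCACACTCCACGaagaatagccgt
PDIA6: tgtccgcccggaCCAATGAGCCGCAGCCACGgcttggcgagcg
SDF2L1: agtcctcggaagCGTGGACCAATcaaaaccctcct
HYOU1, far: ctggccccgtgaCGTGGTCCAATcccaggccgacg
HYOU1, near: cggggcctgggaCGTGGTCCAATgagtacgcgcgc

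Most of the listed genes were higher in cells on Dll4-Fc. On the probe sets that stood for the genes, the rise reached 2-fold for HERPUD1 alone, a rank that depends on the probe set. Another probe set of DNAJB9 rose by 1.03 on the log2 scale, and the mean of the HERPUD1 probe sets by 0.59. Of the 36 measured, 23 rose and 1 fell, and 12 did not pass. A gene passed where limma's moderated test gave a p under 0.05 after Benjamini-Hochberg adjustment across the 19775 genes. The share that rose was 63.9% of the listed genes, against 11.6% of all genes, and 15.0% of all genes fell. The list was chosen with earlier results of these data known, so this contrast is not an independent one. Higher genes made up 43.7% of all calls, or 53.7% after cyclic loess scaling, under which 25 of the 36 rose. The median log2 difference, Dll4-Fc minus untreated, was 0.35 over the 36 genes and -0.01 over all genes. The lowest Dll4-Fc array lay above the highest untreated array for 28 of the 36, against 18.1% of all genes, and the highest Dll4-Fc array lay below the lowest untreated array for 2, against 23.5%. Each array's median over the 36 genes, taken relative to each gene's untreated mean, was 0.37, 0.35 and 0.33 in the Dll4-Fc arrays, against 0.02, 0.01 and -0.04 in the untreated arrays. The spread between arrays of a group was therefore small beside the distance between the groups. When 1 array was left out the number that rose was 20 to 22. With genes dim in both groups dropped, 25 of the 36 rose, against 2386 of 13008 genes, while 3303 of those 13008 fell.

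**Figure D1:**
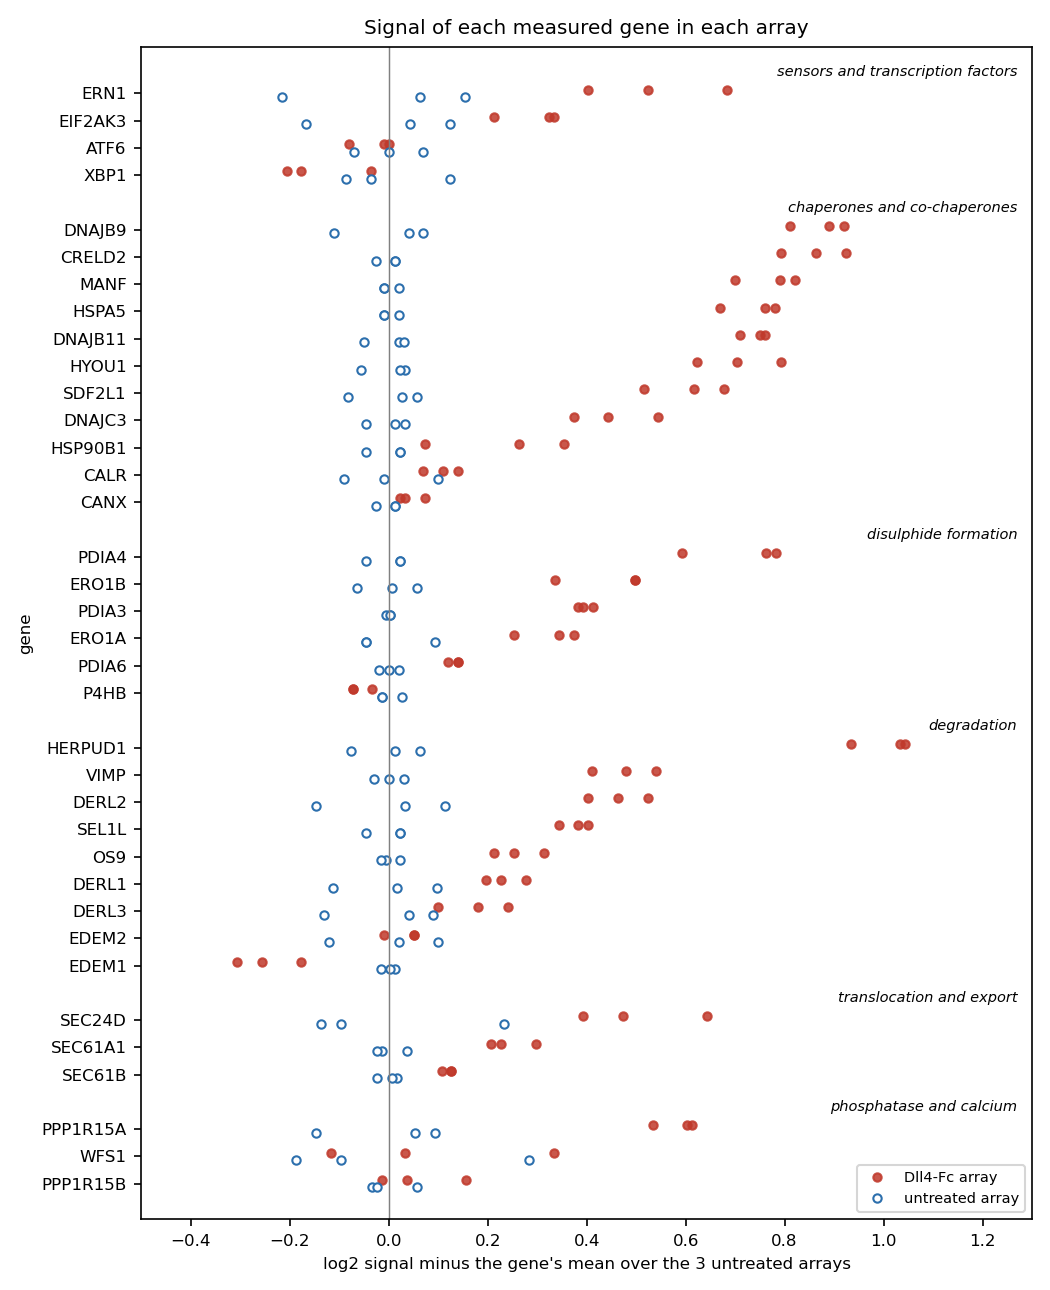
Log2 signal of each measured gene in each array, minus the gene's mean over the 3 untreated arrays (x axis), with genes by role down the page. Filled red points are Dll4-Fc arrays and open blue points untreated arrays. The groups are furthest apart for HERPUD1, and for EDEM1 the red points lie to the left of the blue ones.

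A few facts of the arrays bear on all of these values. Values are RMA signals on the log2 scale and cannot be compared in level between probe sets. Array intensities had medians of 50.6 to 52.7, and arrays of the same group correlated across genes at 0.997 to 0.999, those of different groups at 0.981 to 0.985. Of 6 measured myeloid markers 4 rose and 2 fell, with LYZ, the lysozyme gene, at 13.87 in Dll4-Fc and 11.87 in untreated cells. The 2 that fell were MPO (-0.79 ± 0.11) and CSF3R (-0.45 ± 0.06). Of 10 measured markers of other cells 1 rose, the adhesion gene PECAM1 (0.55 ± 0.06, adjusted p = 0.00041 by limma), which monocytes also express. Whether the cell markers bear on the genes described below was not tested. HES1, a Notch target, rose by 2.93 ± 0.20 (adjusted p = 4.85e-05), but only on probe sets shared between transcripts, and GAPDH differed by 0.02 ± 0.05. In bulk RNA a change in the number of cells of one kind and a change in RNA per cell cannot be told apart. All ± values beside a difference are standard errors from limma with n = 3 arrays per group.

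On the probe sets that stood for them, the sensors and the factor downstream of them did not move together. ERN1, the kinase and nuclease IRE1 that splices XBP1 mRNA, had log2 signals of 7.93, 7.81 and 8.09 in Dll4-Fc cells, against 7.56, 7.47 and 7.19 in untreated cells. Every Dll4-Fc array lay above every untreated one, and the rise was 0.54 ± 0.11 (1.45-fold, adjusted p = 0.0105). As the mean of its 3 probe sets the rise was 0.31. EIF2AK3, the kinase PERK that slows translation, had 9.16, 9.05 and 9.17 in Dll4-Fc cells, against 8.88, 8.96 and 8.67 in untreated cells. It passed narrowly (0.29 ± 0.08, adjusted p = 0.0408), although the groups did not overlap. The call was lost with median centring (0.0684), without untreated replicate 1 (0.077) or 3 (0.0608) and without Dll4-Fc replicate 1 (0.129), 2 (0.0613) or 3 (0.11), each an adjusted p. When all probe sets were tested one by one by limma, neither of the 2 EIF2AK3 probe sets passed. The one that stood for the gene had an adjusted p of 0.0641, and the other gave 0.15 (adjusted p = 0.358).

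ATF6, the sensor that is cut in the Golgi to free a transcription factor, had 9.96, 9.89 and 9.97 in Dll4-Fc cells, against 10.04, 9.97 and 9.90 in untreated cells. The groups overlapped and the difference of -0.03 ± 0.06 did not pass (adjusted p = 0.773). Another of its 4 probe sets gave 0.30 ± 0.08 (adjusted p = 0.0437) when all 54675 probe sets were tested one by one, of which 7.21% passed as higher and 9.25% as lower. XBP1, the transcription factor made active by ERN1, had 10.25, 10.28 and 10.42 in Dll4-Fc cells, against 10.42, 10.58 and 10.37 in untreated cells. The groups overlapped here too, with a difference of -0.14 ± 0.08 (adjusted p = 0.26), and the adjusted p was 0.0385 with array weights. As the mean of its 2 probe sets the XBP1 difference was -0.01 (adjusted p = 0.961). A total XBP1 signal does not tell the spliced from the unspliced mRNA.

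Among the 11 chaperones and co-chaperones 8 rose and none fell, with a median difference of 0.70. HSPA5, the chaperone BiP that also holds the sensors inactive, had 13.71, 13.73 and 13.62 in Dll4-Fc cells, against 12.94, 12.97 and 12.94 in untreated cells. The groups were far apart and the rise was 0.74 ± 0.05 (1.67-fold, adjusted p = 7.41e-05). Its other probe set gave 0.69 ± 0.08. DNAJB9, a J-domain co-chaperone of BiP, had 9.86, 9.89 and 9.78 in Dll4-Fc cells, against 9.04, 9.01 and 8.86 in untreated cells, a rise of 0.87 ± 0.07 (1.83-fold). All 3 of its probe sets rose, by 0.87 to 1.03. DNAJB11, which brings unfolded chains to BiP, had 12.11, 12.12 and 12.07 in Dll4-Fc cells, against 11.38, 11.31 and 11.39 in untreated cells (0.74 ± 0.05). HYOU1, which renews the nucleotide on BiP, had 10.77, 10.86 and 10.69 in Dll4-Fc cells, against 10.10, 10.09 and 10.01 in untreated cells (0.70 ± 0.06). The arrays of the groups did not overlap for any of these.

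MANF, a secreted factor that binds BiP, had 12.13, 12.16 and 12.04 in Dll4-Fc cells, against 11.36, 11.33 and 11.33 in untreated cells, a rise of 0.78 ± 0.06. CRELD2, a secreted stress-induced protein, had 12.20, 12.26 and 12.13 in Dll4-Fc cells, against 11.31, 11.35 and 11.35 in untreated cells, a rise of 0.86 ± 0.06 (1.81-fold, adjusted p = 4.33e-05). SDF2L1, a partner of DNAJB11, had 11.30, 11.24 and 11.14 in Dll4-Fc cells, against 10.65, 10.54 and 10.68 in untreated cells (0.61 ± 0.07). In all 3 genes the untreated arrays differed among themselves by far less than the groups did. DNAJC3, a further BiP co-chaperone, rose by 0.45 ± 0.06.

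The lectin chaperones and the luminal HSP90 did not pass on the probe sets that stood for them. HSP90B1, known as GRP94, had 12.54, 12.45 and 12.26 in Dll4-Fc cells, against 12.21, 12.14 and 12.21 in untreated cells. The groups did not overlap, Dll4-Fc replicate 3 lay close to the untreated arrays, and the difference was 0.23 ± 0.08 (adjusted p = 0.0701). Without that replicate it was 0.31 ± 0.06 (adjusted p = 0.0167), and it also passed when dim genes were dropped, when arrays were weighted and under a trended robust prior. The 2 brighter probe sets that the annotation gives to HSP90B1 and MIR3652 together stood for no gene. Tested over all probe sets they rose, by 0.34 (adjusted p = 0.00748) and 0.30 (adjusted p = 0.0289). CALR, the calcium-binding lectin calreticulin, had 11.69, 11.66 and 11.62 in Dll4-Fc cells, against 11.54, 11.65 and 11.46 in untreated cells, which overlapped (0.10 ± 0.06, adjusted p = 0.313). None of its 3 probe sets passed. CANX, the membrane-bound lectin calnexin, differed by 0.04 ± 0.05, and 1 of its 5 probe sets passed as higher by 0.23 (adjusted p = 0.0488).

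Of the 6 genes of disulphide formation 4 rose and none fell. PDIA4, a disulphide isomerase, had 12.06, 12.04 and 11.87 in Dll4-Fc cells, against 11.30, 11.23 and 11.30 in untreated cells, and rose by 0.71 ± 0.07 (1.64-fold, adjusted p = 0.000246). Its other probe set rose by 0.75. PDIA3, the isomerase that acts with the lectin chaperones, rose by 0.39 ± 0.05 with 3 of 3 probe sets passing. The oxidases that recharge the isomerases both rose, ERO1B by 0.44 ± 0.07 and ERO1A by 0.32 ± 0.06, on every one of their probe sets. The isomerases PDIA6 (0.13 ± 0.05, adjusted p = 0.0925) and P4HB (-0.06 ± 0.05, adjusted p = 0.43) did not pass, although their arrays did not overlap between the groups. PDIA6 passed when dim genes were dropped (adjusted p = 0.038), after cyclic loess (0.0469), with weighted arrays (0.0417) and under a trended robust prior (0.000786).

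**Figure D2:**
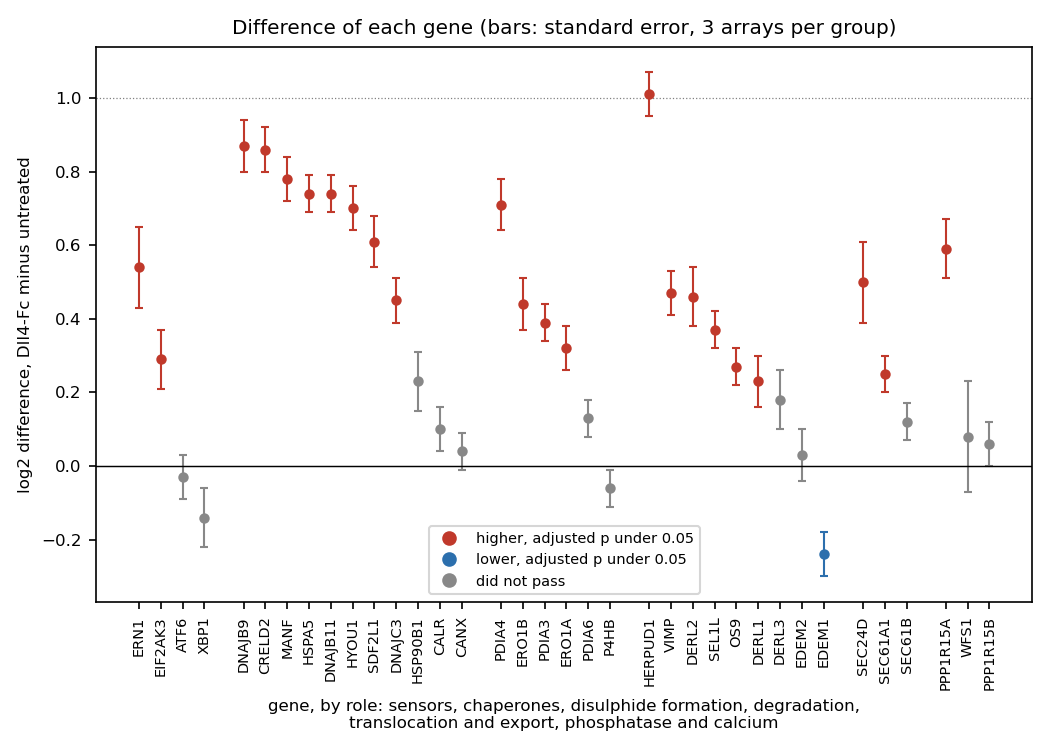
Log2 difference, Dll4-Fc minus untreated, of each measured gene (y axis), with genes by role along the x axis. Bars are standard errors (3 arrays per group), colours give the result of limma's test and the dotted line marks 2-fold. HERPUD1 alone reaches that line and EDEM1 is the one gene that passed as lower.

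In the degradation pathway 6 of 9 measured genes rose and 1 fell. HERPUD1, which helps to assemble the complex that exports misfolded proteins, had 11.90, 11.89 and 11.79 in Dll4-Fc cells, against 10.92, 10.87 and 10.78 in untreated cells. This was the largest difference among the 36, at 1.01 ± 0.06 (2.01-fold, adjusted p = 3.16e-05), and the groups lay far apart. Its other probe set, at a signal of 6.30 in Dll4-Fc and 6.13 in untreated cells, gave 0.17 (adjusted p = 0.288), and the mean of both gave 0.59. Partners of that complex rose less. The membrane protein VIMP (SELENOS), which recruits the extracting ATPase, rose by 0.47 ± 0.06, SEL1L, the adaptor of the ligase, by 0.37 ± 0.05 and OS9, a lectin that delivers clients to it, by 0.27 ± 0.05. DERL2, a rhomboid-like channel protein, rose by 0.46 ± 0.08, or 0.27 as the mean of its 2 probe sets.

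DERL1, a relative of DERL2, passed narrowly (0.23 ± 0.07, adjusted p = 0.0425), and 2 of its other probe sets rose by 0.32 and 0.58. Its call was lost with median centring (adjusted p = 0.0883), array weights (0.0609) or shared probe sets dropped (0.0557). It was also lost when untreated replicate 1 (0.0921) or 3 (0.0763), or Dll4-Fc replicate 1 (0.0915), 2 (0.106) or 3 (0.114) was left out, each an adjusted p. DERL3 differed by 0.18 ± 0.08 (adjusted p = 0.138), and by 0.30 (adjusted p = 0.0119) on its probe set not shared between transcripts. EDEM1, which helps to pick out misfolded glycoproteins, had 11.31, 11.36 and 11.44 in Dll4-Fc cells, against 11.63, 11.62 and 11.60 in untreated cells. It was the 1 gene that fell, by 0.24 ± 0.06 on the log2 scale (adjusted p = 0.0158), without overlap between the groups. The call was lost without untreated replicate 2 (adjusted p = 0.0591), Dll4-Fc replicate 1 (0.0699) or Dll4-Fc replicate 2 (0.059). Its relative EDEM2 differed by 0.03 ± 0.07, and the groups overlapped.

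Among genes of entry and exit, SEC61A1, the pore of the translocon, rose by 0.25 ± 0.05 (adjusted p = 0.0138). That call was lost without untreated replicate 2 (adjusted p = 0.0549) or Dll4-Fc replicate 2 (0.0585). SEC24D, a coat protein of vesicles that leave for the Golgi, rose by 0.50 ± 0.11 (adjusted p = 0.0145), but only on 1 of 3 probe sets, with 0.28 as their mean and an adjusted p of 0.051 without untreated replicate 1. The translocon subunit SEC61B differed by 0.12 ± 0.05 (adjusted p = 0.121), and passed with weighted arrays (0.0487) and under a trended robust prior (0.00257). PPP1R15A, the phosphatase subunit GADD34 that restores translation after stress, had 7.63, 7.70 and 7.71 in Dll4-Fc cells, against 7.19, 7.15 and 6.95 in untreated cells. The groups did not overlap and the rise was 0.59 ± 0.08 (1.5-fold, adjusted p = 0.00121), with 0.94 on its other probe set. Its constitutive counterpart PPP1R15B differed by 0.06 ± 0.06, and WFS1, a membrane protein linked to calcium balance, by 0.08 ± 0.15. The arrays of both overlapped between the groups.

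**Figure D3:**
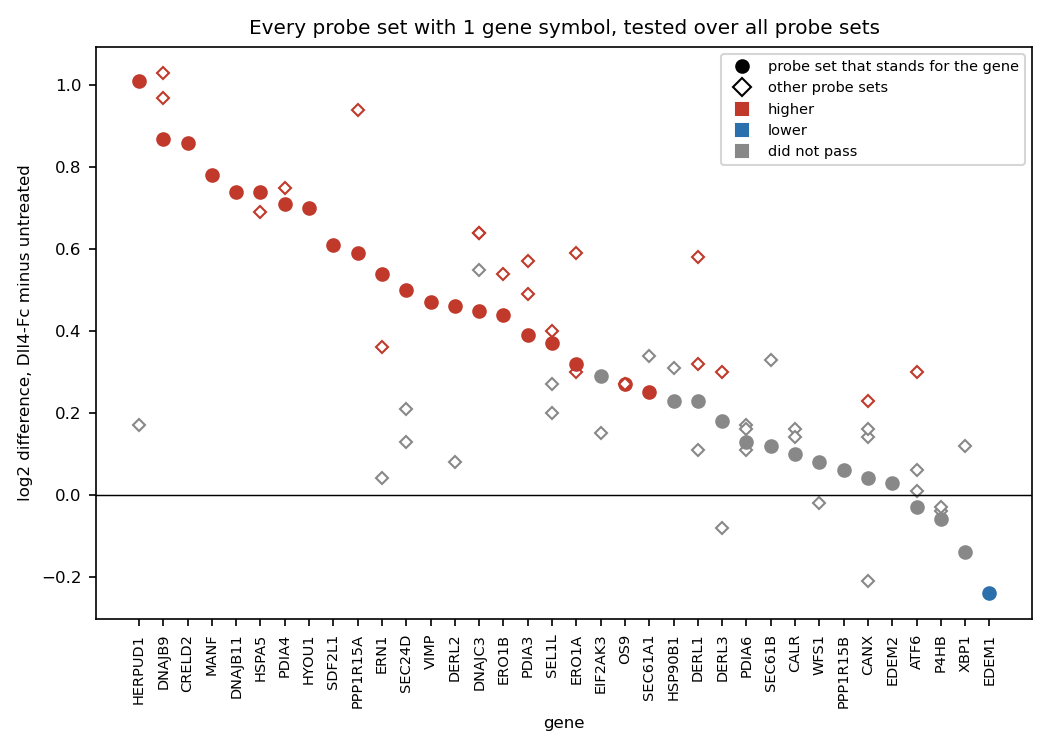
Log2 difference, Dll4-Fc minus untreated (y axis), of every probe set that carries 1 of the gene symbols (x axis). Filled circles stand for the gene, open diamonds are its other probe sets, and colours give the test adjusted over all 54675 probe sets, under which the probe sets standing for EIF2AK3 and DERL1 did not pass. The 3 probe sets of DNAJB9 lie close together, and those of HERPUD1 far apart.

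The promoter elements shown above did not go with one outcome. Of the 8 genes with an ERSE, HSPA5, CRELD2 and ERO1B rose, and HSP90B1, CALR, CANX, PDIA6 and XBP1 did not pass. The 2 probe sets annotated to HSP90B1 and MIR3652 together, which do not enter this count, did rise. HYOU1, HERPUD1 and SDF2L1, the 3 with an ERSE-II, all rose. Of the 24 measured genes whose promoter sequence held no exact match to ERSE, 17 rose, among them DNAJB9, MANF, DNAJB11 and PDIA4. These 24 and 17 include the 3 genes with an ERSE-II. Near matches were not counted, and the HERPUD1 promoter, among these 24, holds CCAAT, 9 bases and CCACA. The split is therefore one of exact matches only. A match of letters is not a tested site, and binding was not measured.

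Other genes of the same compartment, and of stress pathways linked to it, were read on 5 further lists. Together they are called the other endoplasmic reticulum genes below, although not all of the stress genes act in that compartment. Of 137 measured genes of 144 listed, 36 rose and 17 fell, with a median difference of 0.03. The share that rose was 26.3%, against 11.6% of all genes, and the share that fell was no larger than the 15.0% of all genes. These lists too were chosen with earlier results of these data known. Without Dll4-Fc replicate 1 the counts were 23 and 11. With dim genes dropped instead, 43 of 135 rose and 21 fell, against 2386 and 3303 of 13008 genes. With all arrays and genes, 13.8% to 25.8% rose on the lists other than that of stress outputs and sensor processing. On that list 10 of 18 genes (55.6%) rose and 3 fell. The largest rises there were those of CHAC1, which breaks down glutathione (0.96 ± 0.12), the pseudokinase TRIB3 (0.89 ± 0.06) and DDIT3, the transcription factor CHOP (0.86 ± 0.06, adjusted p = 5.52e-05). CREB3L2, a relative of ATF6, fell (-0.26 ± 0.05), and -0.18 as the mean of its probe sets did not pass. MBTPS1, a protease that cuts ATF6, fell by 0.28 (-0.15 as the mean of its probe sets), and BCL2L11, the death gene BIM, by 0.24 (-0.10 as that mean). Neither passed without untreated replicate 2 (adjusted p = 0.0996 and 0.055), Dll4-Fc replicate 1 (0.106 and 0.0666) or Dll4-Fc replicate 2 (0.0973 and 0.0623), nor MBTPS1 without untreated replicate 1 (0.0816).

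In the list of translocon, signal peptidase and glycosylation genes 8 of 31 rose and 1 fell. SEC11C, a signal peptidase subunit, rose by 0.43 ± 0.05, SRPRB, a receptor subunit for the signal recognition particle, by 0.40 ± 0.05 and SSR3, a translocon-associated protein, by 0.34 ± 0.05, which was 0.21 (adjusted p = 0.148) without shared probe sets. STT3A, a subunit of the glycosylating enzyme, fell by 0.23 ± 0.06, a call kept only when untreated replicate 3 was the array left out (adjusted p of 0.0501 to 0.0774 without any other array). Of 32 other folding factors 8 rose and 5 fell, and the share that fell is near the 15.0% of all genes. QSOX1, a sulfhydryl oxidase, rose by 0.54 ± 0.05 (0.26 as the mean of its probe sets), DNAJC10, a reductase with a J domain, by 0.47 ± 0.06 and SIL1, a nucleotide exchange factor of BiP, by 0.47 ± 0.06. The steepest fall was that of CLGN, a calnexin relative known from testis (-0.92 ± 0.10, adjusted p = 0.000672), followed by the prolyl isomerase PPIC (-0.43 ± 0.06) and the peroxiredoxin PRDX4 (-0.27 ± 0.05).

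Of 29 other degradation factors 4 rose and 6 fell, shares not far from those over all genes. FBXO6, which recognizes glycans on misfolded proteins, rose by 1.04 ± 0.09 (2.06-fold), HM13, the signal peptide peptidase, by 0.56 ± 0.05 (0.23 without shared probe sets) and VCP, the extracting ATPase, by 0.26 ± 0.06. VCP did not pass without shared probe sets (0.18, adjusted p = 0.0982), untreated replicate 2 (adjusted p = 0.0519), Dll4-Fc replicate 1 (0.0516) or Dll4-Fc replicate 2 (0.0505). MARCHF6, a ubiquitin ligase, fell by 0.52 ± 0.06 (-0.21 as the mean of its probe sets), UBAC2, a ligase partner, by 0.43 ± 0.06 and NGLY1, which strips glycans, by 0.32 ± 0.06 (-0.19, adjusted p = 0.0526, without shared probe sets). In vesicle export and retrieval 6 of 27 genes rose and 2 fell. SEC23B, a coat protein, rose by 0.44 ± 0.07, or 0.28 without shared probe sets. The GTPase SAR1B rose by 0.75 ± 0.09, but by 0.23 (adjusted p = 0.0558) without shared probe sets, and the fusion protein SEC22B rose by 0.28 ± 0.05, yet gave -0.34 (adjusted p = 0.211) there. ERGIC3 fell by 0.43 ± 0.07 and gave -0.08 (adjusted p = 0.712) there, and PREB, which loads SAR1 with GTP, fell by 0.31 ± 0.06.

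**Figure D4:**
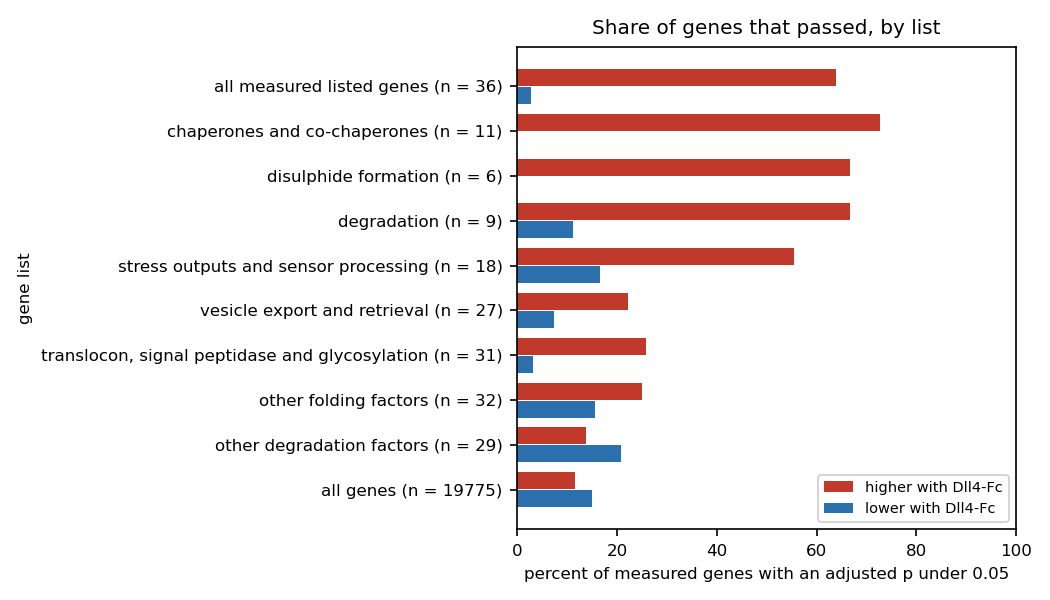
Percent of the measured genes of each list that passed limma's test as higher (red) or lower (blue) in Dll4-Fc cells, with the number measured beside each name. The listed folding and stress genes stand at 63.9% higher, the 5 further lists at 13.8% to 55.6%, and all genes at 11.6%.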

How the data were processed

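Each of 54675 probe sets has a linear intensity for every array in the deposited values. RMA (background correction, quantile normalization and probe summary) is the authors' method, per the submitters' processing notes, which name no version. Quantile normalization hides a change in total RNA per cell, and RMA shrinks differences of dim probe sets. With 3 arrays per group precision is limited: over all genes, standard errors of the log2 difference had a median of 0.0755.

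Here intensities were log2 transformed and named from the platform annotation (41097 probe sets with 1 symbol, 1801 with several, 11777 not listed; 41043 of the first matched RefSeq gene numbers). The group comparison used lmFit and eBayes of limma 3.58.1 under R 4.3.3 (2-sided, 4 residual degrees of freedom). In simulated data with these 19775 genes, log2 changes of 0.25, 0.5, 1 and 2 were recovered in 10%, 58%, 100% and 98% of 50 genes each, with 3 false calls among 136. Only those genes were changed in the simulation, while 5262 genes passed in the real data. The adjusted threshold was therefore stricter in the simulation, and these shares do not carry over to the real comparison.

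The genes and lists were chosen with earlier results of these data known. Array values are given for 10 genes fixed by name, the 10 largest differences that passed, and EDEM1, chosen after its value was seen. Of each further list up to 3 passing genes per direction are named, with HES1 and GAPDH as checks. Alternatives were a replicate block, the mean of probe sets, no shared probe sets (suffix _x_at, _s_at or _a_at), no dim genes (mean under 5.69 in both groups), cyclic loess, median centring, a trended robust prior, array weights and leaving out each array.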

Additional observations from a re-analysis of the deposited data

Results flagged for a closer look

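Probe sets that the annotation assigns to 2 genes at once were left out of the comparison by gene and entered only the test over all probe sets, and 3 of them that include a listed gene carried a signal above that of the untreated arrays. The one assigned to MIR6751 and SYVN1 together had log2 signals of 8.47, 8.42 and 8.37 in Dll4-Fc cells, against 7.95, 8.02 and 7.99 in untreated cells, a difference of 0.44 ± 0.06 (limma over all probe sets, adjusted p = 0.00266). One of those assigned to MIR3652 and HSP90B1 together had 13.88, 13.86 and 13.87 in Dll4-Fc cells, against 13.52, 13.50 and 13.58 in untreated cells, a difference of 0.34 ± 0.06 (adjusted p = 0.00748). The third, assigned to the same pair, had 13.55, 13.42 and 13.34 in Dll4-Fc cells, against 13.13, 13.10 and 13.17 in untreated cells (0.30 ± 0.08, adjusted p = 0.0289). In all 3 the groups did not overlap. Which of the 2 genes gave the signal was not tested.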

How the results depend on the processing

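Replicate numbers did not pair the arrays: deviations of same-numbered arrays from their group means correlated at 0.01, -0.21 and -0.15, and not every array correlated best with its own number. With the replicate number as a block, 20 listed genes rose and 0 fell, against 23 and 1. The calls lost were those of EIF2AK3 (adjusted p = 0.0873 by limma), DERL1 (0.102), SEC61A1 (0.0565) and EDEM1 (0.0625). Of the other endoplasmic reticulum genes 23 rose and 11 fell, against 36 and 17. The cause of these moves was not tested. The number of listed genes that rose was 16 of 28 without shared probe sets and 21 to 26 of 36 under the other alternatives that kept all arrays and had no block. With array weights 2 fell, the second being XBP1. The median difference, 0.35, was 0.30 when each gene's probe sets were averaged, 0.31 when shared ones were dropped and 0.40 with cyclic loess, which turned the split over all genes from 43.7% of calls higher to 53.7%. Leaving out 1 array gave a median of 0.33 to 0.38, 0 to 1 listed genes that fell, 23 to 33 and 11 to 21 other endoplasmic reticulum genes that rose and fell, and 1850 (without Dll4-Fc replicate 1; 1967 without untreated replicate 2) to 3189 genes that fell in all, against 2964. Differences that changed sign, none past the threshold once turned, were those of ATF6 (0.08 with averaged probe sets, 0.03 with cyclic loess, -0.06 to 0.00 with 1 array left out), WFS1 (-0.04 to 0.22 with 1 array left out), EDEM2 (-0.03 to 0.08 with 1 array left out) and SEC22B (-0.03 with averaged probe sets, -0.34 with shared ones dropped). Of 496 repeats over the listed genes, 453 kept direction and side of the threshold, 24 lost a call, 13 gained one and 6 changed sign.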

Other observations

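The ERSE element was also found in the promoters of 17 genes outside the list, 10 of them measured. Of these 3 rose, 0 fell and 7 did not pass limma's test, against 11.6% of all genes that rose. They were read after the listed genes had been described, and are named for that reason. FICD, the enzyme that modifies BiP, rose by 0.78 ± 0.09 (adjusted p = 0.000842), TRIM5, an antiviral factor, by 1.45 ± 0.11 (adjusted p = 7.4e-05) and ALG12, a mannosyltransferase of the glycan precursor, by 0.38 ± 0.06 (adjusted p = 0.0034). The ALG12 element is the same run of bases as that of CRELD2, at chr22:49918554-49918572 of GRCh38.p14, 134 bases before the ALG12 start and 80 before that of CRELD2, so these genes share it. SERP1, which steadies new membrane proteins, and EIF2A, a translation factor, share another at chr3:150546710-150546728, and neither passed (0.11 ± 0.05 and -0.09 ± 0.05). Of 15 measured genes outside the list with an ERSE-II, 3 rose and 2 fell. The 3 were NUCB1, a calcium-binding protein (0.20, adjusted p = 0.0456), RAD9A (0.18, 0.0451) and SHCBP1 (0.29, 0.00418), and the 2 were PLS3 (-0.38) and RUVBL2 (-0.35).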
